A study of Mus musculus with 6 samples.

Results

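The parvafox nucleus was set against the cerebral cortex within each of 2 mice, on 4 of the 6 Affymetrix Mouse Gene 2.0 ST arrays of the series. The nucleus of mouse 355, the nucleus of mouse 511 and the cortex of each were hybridized to an array of their own. The members were chosen by the brain region in the sample labels. The 2 hippocampus arrays (CA2-CA3 area) entered the estimate of the spread, the choice of the brightest probe set, a few descriptive values and 1 closing comparison. All animals were adult, untreated mice of the strain C57BL/6, although the strain is not labelled for the nucleus of mouse 511. The cortex samples, labelled only as cerebral cortex, came from the piriform and entorhinal fields according to the study's methods. Tissue was cut out by laser from frozen horizontal sections, and the outline of the nucleus was taken from neighboring sections on which a Vicia villosa lectin had stained the perineuronal nets, so a sample held every cell type within that outline. The 2 mice were the ones of the study's animals with the best RNA, and each array stands for 1 animal. The array annotation gave 22180 genes a probe set with exactly 1 symbol, and a gene with several such probe sets was represented by the brightest. Values are log2 signals, so a difference of 1 is a 2-fold difference, and signals of different genes were not compared with each other.

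The parvafox nucleus is a slender cord of neurons in the ventrolateral hypothalamus, between the optic tract and the fornix. Its parvalbumin neurons release glutamate and load it into vesicles with the transporter Vglut2, whereas parvalbumin neurons of the cortex are inhibitory and release GABA. A second set of neurons in the nucleus expresses the transcription factor Foxb1. The lateral hypothalamus around it also holds neurons that make melanin-concentrating hormone or orexin, peptides of feeding and arousal. Principal neurons of the cortex use glutamate too, but load it with Vglut1, and they arise from the telencephalon under a different set of transcription factors.

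The question was which genes separated nucleus and cortex in both animals. At least 2-fold higher signals in the nucleus of both mice were found for 92 genes (0.415% of 22180), and at least 2-fold lower signals for 212 (0.956%). The limma test over all 41345 probe sets, with region and mouse as terms, called no probe set at an adjusted p of 0.05 (0%). The smallest adjusted p was 0.0846, and 3261 probe sets had an unadjusted p under 0.05. Of the genes, 707 (3.19%) were higher and 1037 (4.68%) lower at an unadjusted p under 0.05. These shares over all genes are the background for the counts of each gene list below. With 2 mice, a paired sign-flip test of a single gene cannot give a p below 0.5, so the 2-fold counts are descriptions without a test. With 1 probe set per gene in the limma fit, 13 genes passed, 2 higher and 11 lower, and the adjusted p-values below are those over all probe sets unless the gene table is named.

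The 2 mice shared part of these differences. Taken alone, mouse 355 had 376 genes past 2-fold upward and mouse 511 had 894. The 92 shared genes made up 24.5% of the list of mouse 355, beside 4.03% of all genes that were 2-fold higher in mouse 511. They made up 10.3% of the list of mouse 511, beside 1.70% of all genes in mouse 355. Downward, the 212 shared genes were 39.7% of the 534 in mouse 355 and 20.0% of the 1059 in mouse 511, beside 4.77% and 2.41% of all genes. Across the 22180 genes, which are not independent replicates, the differences of the 2 mice had a Pearson's r of 0.281 and a Spearman's rho of 0.165, and 54.3% had the same sign. Arrays of 1 region differed 2-fold between the mice for 1143 genes in the nucleus and 898 in the cortex. The array of the nucleus of mouse 355 correlated more closely with the cortex of the same mouse (Pearson's r = 0.974 across genes) than with the nucleus of mouse 511 (0.969). For the nucleus of mouse 511 it was the reverse, with 0.955 for its own cortex against 0.969 for the other nucleus. The 2 cortices correlated at 0.975. The cortex of mouse 511 stood apart in striatal genes, described further on with the values of each mouse. The differences were wider in mouse 511 (SD 0.617 across genes) than in mouse 355 (SD 0.465). At the edge of the rule, Vmn1r7 was just inside upward, at 1.06 in mouse 355 and 1.01 in mouse 511, and Myl6b just outside, at 1.10 and 0.9957. Downward, Dcaf6 was just inside at -1.001 and -1.35, and Arhgap10 just outside at -0.9991 and -1.56.

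**Figure D1:**
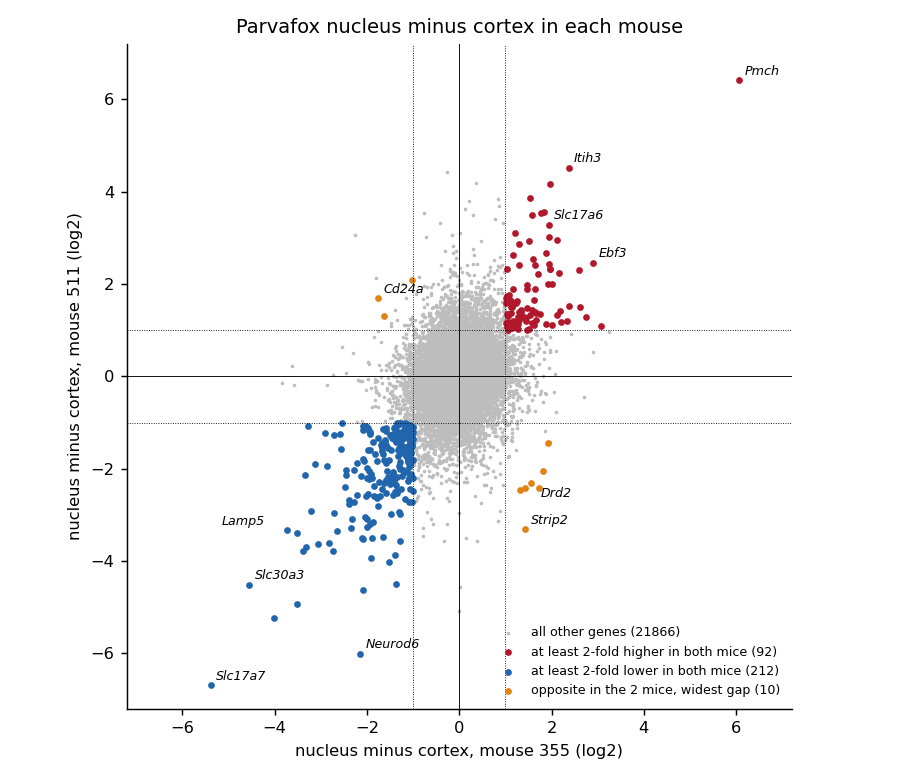
Nucleus minus cortex on the log2 scale in mouse 355 (horizontal axis) and mouse 511 (vertical axis), 1 point per gene, with dotted lines at the 2-fold limits. The 92 genes higher in both mice lie at the upper right with Pmch alone in the far corner, and the 212 lower in both lie at the lower left with Slc17a7 farthest out.

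Among the 92 higher genes, 70 code for proteins, 10 are long non-coding RNAs and 8 are small RNA genes. Of the 212 lower genes, 208 code for proteins. In both mice, 69 of the 212 lower genes reached 3-fold or more and 32 reached 4-fold or more. Among the 92 higher genes, 22 and 6 did. The median signal of the higher genes was 4.66 in the cortex against 6.43 in the nucleus, and that of the lower genes was 7.30 against 5.35. For 16 of the higher genes the cortex mean lay below 3.62, the median of all probe sets, where a low signal limits how large a fold can appear. The same held for the nucleus mean of 13 of the lower genes.

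Pmch, the precursor of melanin-concentrating hormone, had by far the widest difference upward. Its log2 signal was 10.24 in the nucleus of mouse 355 and 9.81 in that of mouse 511, and 4.19 and 3.40 in the cortices. The nuclei and the cortices lay far apart, and the hippocampi were dimmer still at 3.14 and 2.96. The nucleus exceeded the cortex 66.6-fold in mouse 355 and 85.4-fold in mouse 511, where the cortex signal lay below the median of all probe sets, 3.62. The limma estimate was 6.24 (standard error 0.23, adjusted p = 0.0846 over all probe sets and 0.00588 over the gene table). Fewer cells of a type and less RNA per cell cannot be told apart in samples of whole tissue, for this gene or any below. The 120 bases before its transcription start are shown because Pmch carries the largest difference. They are from RefSeq on GRCm38.p6, written 5′ to 3′ on the strand of the gene, and the capitals mark a TATAAA box that begins 27 bases before the start, a motif that 5.04% of the 16990 genes with a promoter in the table had within this window on the strand of the gene.
Pmch, chr10:88090952-88091071, plus strand: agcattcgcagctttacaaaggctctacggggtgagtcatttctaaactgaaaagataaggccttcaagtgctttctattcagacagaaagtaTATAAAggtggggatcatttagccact

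Among neuropeptide genes of the hypothalamus, 35 measured, 3 passed 2-fold upward in both mice (Pmch, Npb and Adcyap1) and 4 downward (Sst, Npy, Vip and Cck). The median difference of the list was 0.01 in mouse 355 and -0.21 in mouse 511, close to 0.00 and 0.01 over all genes. Npb codes for neuropeptide B, a ligand of G protein-coupled receptors. It read 5.81 and 6.79 in the nuclei and 3.86 and 3.77 in the cortices of mouse 355 and mouse 511 (limma difference 2.49, standard error 0.32, adjusted p = 0.31). Adcyap1, which codes for the peptide PACAP, read 8.37 and 8.03 in the nuclei against 6.40 and 5.71 in the cortices, an estimate of 2.15 with a standard error of 0.74. Other members depended on 1 array. Gal, the galanin gene, read 6.78 in the nucleus of mouse 355 and 4.15 in that of mouse 511, against cortices at 3.89 and 3.62. Cartpt, the precursor of CART peptides, read 7.92 in the nucleus of mouse 355 and 5.00 in that of mouse 511, against cortices at 7.92 and 7.95. Trh, the thyrotropin-releasing hormone gene, stood out in 1 cortex, at 8.31 in mouse 355 against 4.58 in mouse 511, with both nuclei near 4.48 and 4.44.

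Neurons that surround the nucleus were followed with 12 genes of melanin-concentrating hormone and orexin cells. Pmch was 2-fold higher in both mice and Gda, guanine deaminase, 2-fold lower, and the list's medians were 0.08 and -0.16. Hcrt, the orexin precursor, was dim on every array, at 3.74 and 2.73 in the nuclei and 3.54 and 2.94 in the cortices. Hcrtr2, an orexin receptor, was higher in both nuclei by 1.70 in mouse 355 and 0.70 in mouse 511. What part neighboring melanin-concentrating hormone cells inside the excised outline had in the Pmch signal was not tested.

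The vesicular glutamate transporters separated the regions in opposite directions. Slc17a6, the gene of Vglut2, had log2 signals of 10.18 and 9.53 in the nuclei and 8.24 and 6.24 in the cortices of mouse 355 and mouse 511. The nuclei lay above both cortices, but the cortices stood apart from each other, and the estimate of 2.61 had a standard error of 0.95 (limma adjusted p = 0.618). Slc17a7, the gene of Vglut1, read 4.13 and 3.27 in the nuclei against 9.51 and 9.96 in the cortices. It was 41.7-fold lower in the nucleus of mouse 355 and 103-fold lower in that of mouse 511, the widest difference downward (limma estimate -6.03, standard error 0.35, adjusted p = 0.172 over all probe sets and 0.0218 over the gene table). The nucleus signal of mouse 511 lay below 3.62, the median of all probe sets, where folds are limited. Slc17a8, the gene of Vglut3, stayed between 3.20 and 4.04 on the 4 arrays. The bases before the starts of the oppositely placed transporter genes follow, 120 for each, from RefSeq on GRCm38.p6 (for Slc17a6 the first of its listed starts).
Slc17a6, chr7:51621710-51621829, plus strand: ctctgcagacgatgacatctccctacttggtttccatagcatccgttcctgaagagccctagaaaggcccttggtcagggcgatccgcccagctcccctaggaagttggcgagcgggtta
Slc17a7, chr7:45163801-45163920, plus strand: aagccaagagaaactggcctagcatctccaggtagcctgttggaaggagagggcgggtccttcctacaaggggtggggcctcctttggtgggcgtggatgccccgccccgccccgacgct

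Genes of GABA synthesis and loading were lower in the nucleus. Slc32a1, the vesicular GABA transporter, read 5.00 and 4.48 in the nuclei and 7.05 and 7.54 in the cortices. Its second probe set read 5.47 and 5.07 against 6.32 and 6.19. There the differences were -0.85 in mouse 355, short of 2-fold, and -1.12 in mouse 511. Gad2 read 6.58 and 5.85 against 7.59 and 8.57, and Gad1 read 4.06 and 3.49 against 5.34 and 5.36. The limma differences were -2.55 for Slc32a1, -1.87 for Gad2 and -1.57 for Gad1, with adjusted p-values of 0.31, 0.514 and 0.394. Of the 16 measured genes of fast and monoamine transmission, 2 were 2-fold higher in both mice (Slc17a6 and Hdc) and 4 lower (Slc17a7, Slc32a1, Gad1 and Gad2). Hdc, the enzyme that makes histamine, was dim even where it was higher, at 4.07 and 4.25 in the nuclei and 2.78 and 3.02 in the cortices. Slc18a2, the vesicular monoamine transporter, was higher by 0.88 and 0.92, just short of 2-fold.

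Of the 20 GABAergic interneuron genes measured, 9 were 2-fold lower in both mice and none was higher, and 14 had an unadjusted limma p under 0.05 downward. Over all genes, 0.956% were 2-fold lower in both mice and 4.68% had such a p downward. The list's median was -0.79 in mouse 355 and -1.71 in mouse 511. Among the interneuron peptides, Vip read 3.41 and 2.85 in the nuclei and 5.81 and 5.62 in the cortices. Its limma difference of -2.58 had a standard error of 0.20 (adjusted p = 0.236 over all probe sets and 0.0444 over the gene table). Npy had differences of -1.92 in mouse 355 and -3.21 in mouse 511, and Sst of -1.998 and -2.19. Dlx5, a transcription factor of forebrain GABA neurons, had differences of -1.52 and -4.02, and its cortex signal was itself 5.69 in mouse 355 and 7.67 in mouse 511. Calb2, which codes for the calcium-binding protein calretinin, went the other way in mouse 511, at 8.43 in the nucleus and 4.81 in the cortex, but read 7.23 and 7.11 in mouse 355.

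Pvalb and Foxb1, the markers from which the nucleus takes its name, did not pass 2-fold in both mice. Pvalb read 7.91 and 7.70 in the nuclei, and 7.95 and 5.74 in the cortices, so it was higher only in mouse 511. Foxb1 read 5.82 and 4.15 in the nuclei against 3.84 and 3.62 in the cortices, higher by 1.97 in mouse 355 and 0.52 in mouse 511. Both nuclei lay above both cortices for Foxb1, whereas the cortex of mouse 355 was level with the nuclei for Pvalb. Genes of fast-spiking and long-axon neurons gave 1 member of 21 that was 2-fold higher in both mice, Sncg (gamma-synuclein), at 7.67 and 6.12 against 6.10 and 4.69, and none that was lower. Vamp1, a synaptic vesicle protein, was like Pvalb dimmest in the cortex of mouse 511, with 8.70 and 8.23 in the nuclei and 8.73 and 6.72 in the cortices. The 12 perineuronal net genes had none past 2-fold in both mice and medians of -0.08 and 0.05, and the lectin that outlined the nucleus binds such nets.

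A fixed rule named the 15 genes with the largest mean differences upward, led by Pmch, Itih3, Igsf1, Ebf3 and Sfrp5. The rule took protein-coding and long non-coding RNA genes from the 92 and left out Gm and Rik symbols. Genes outside it, such as small RNA genes and receptor segments, were not ranked. Igsf1, a membrane protein whose loss causes central hypothyroidism, read 5.66 and 7.09 in the nuclei against 4.13 and 3.23 in the cortices. Sfrp5, a secreted antagonist of Wnt signals, read 6.79 and 7.28 against 5.01 and 3.74. Both were higher in each mouse and wider in mouse 511, with limma differences of 2.70 (standard error 0.63) and 2.66 (standard error 0.47). Rmst, a long non-coding RNA, read 8.57 and 8.99 against 6.45 and 6.04, an estimate of 2.54 with a standard error of 0.27 (adjusted p = 0.31). A second, dimmer probe set of Rmst differed by 1.08 in mouse 355 and 0.83 in mouse 511. Apoc1, an apolipoprotein, read 8.75 and 9.30 against 6.88 and 6.62. Mthfd2l, a mitochondrial enzyme of folate metabolism, read 7.79 and 8.16 against 6.19 and 5.62. Lhfpl5, known from the mechanotransduction channel of hair cells, read 5.82 and 6.31 against 3.85 and 3.99. For Igsf1, Sfrp5, Rmst, Apoc1, Mthfd2l and Lhfpl5 the lower nucleus lay above the higher cortex. The same held for 89 of the 92 higher genes, beside 4168 of all 22180, so the 2-fold rule nearly fixes it. The smallest adjusted p-value of the 6 genes over all probe sets was 0.31.

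**Figure D2:**
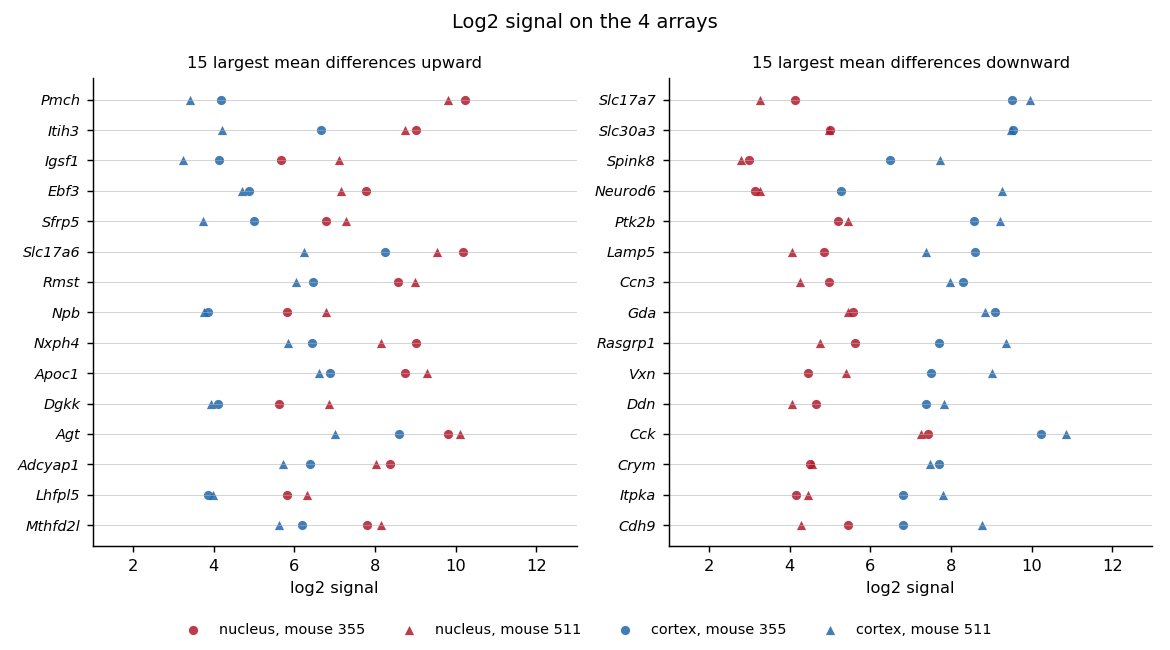
Log2 signal (horizontal axis) on the 4 arrays of the 15 genes with the largest mean differences upward (left) and downward (right). They were ranked among protein-coding and long non-coding RNA genes without Gm or Rik symbols. Red marks the nucleus and blue the cortex, with circles for mouse 355 and triangles for mouse 511. Nucleus and cortex symbols do not mix in any of the 30 genes, which were chosen for 2-fold differences in both mice. That rule nearly fixes such separation, found for 89 of the 92 higher and all 212 lower genes. Over all 22180 genes, 4168 were separated upward and 4019 downward. The cortices of the 2 mice stand apart for Itih3, Slc17a6, Neurod6 and Cdh9.

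Of 43 measured transcription factors of the hypothalamus and diencephalon, 22 were higher in both mice (6181 of all 22180 genes were). An unadjusted limma p under 0.05 upward was found for 12, beside 3.19% of all genes. Ebf3 and Lhx5 reached 2-fold in both mice, as 0.415% of all genes did, and the medians were 0.20 and 0.31. Ebf3, of the early B-cell factor family, read 7.78 and 7.16 in the nuclei against 4.88 and 4.70 in the cortices. Its difference was 2.68 with a standard error of 0.22 (limma adjusted p = 0.236 over all probe sets and 0.0444 over the gene table). Lhx5, a LIM homeobox factor, read 4.47 and 3.91 against 2.85 and 2.79. Nkx2-1, which specifies ventral hypothalamus, and Lhx1 resembled Foxb1: they were higher by 2.10 and 1.96 in mouse 355, but in mouse 511 only by 0.55 and 0.58. Foxa1, a forkhead factor, was the reverse, higher by 0.62 in mouse 355 and 2.22 in mouse 511. Meis2, a homeobox factor that is also strong in striatal and cortical neurons, was the 1 member 2-fold lower in both, at 5.37 and 6.06 against 7.84 and 8.47.

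**Figure D3:**
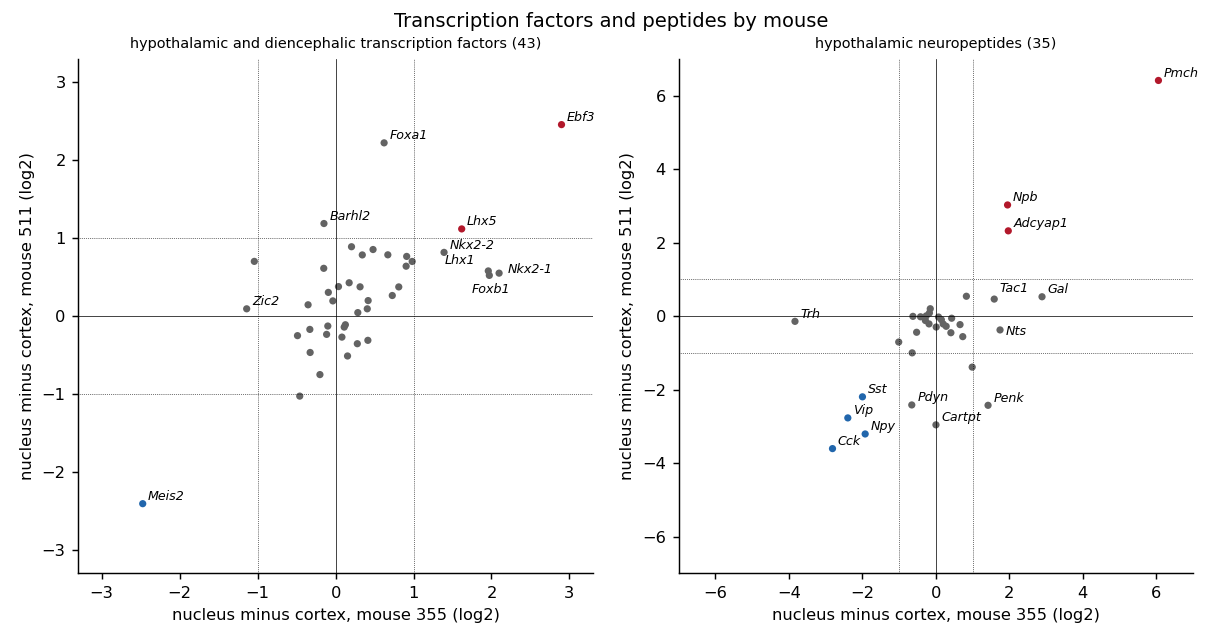
Nucleus minus cortex on the log2 scale in mouse 355 (horizontal axes) and mouse 511 (vertical axes) for 43 hypothalamic transcription factors (left) and 35 neuropeptide genes (right), with dotted lines at 2-fold, red for genes 2-fold higher and blue for genes 2-fold lower in both mice. Ebf3 and Pmch lie farthest to the upper right, Meis2 and Cck farthest to the lower left, and Trh, Gal and Cartpt lie off the diagonal because 1 array sets them apart.

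Genes of telencephalic principal neurons had the lowest medians of the 27 lists in both mice. Of 23 measured, 14 were 2-fold lower in both mice, beside 0.956% of all genes, and none was higher. An unadjusted limma p under 0.05 downward was found for 19, beside 4.68% of all genes. The medians were -1.96 in mouse 355 and -2.15 in mouse 511. Slc30a3, the transporter that fills glutamate vesicles with zinc, read 5.00 and 4.99 in the nuclei and 9.54 and 9.49 in the cortices. The arrays of each region agreed closely here, and the difference of -4.53 had a standard error of 0.28 (limma adjusted p = 0.172 over all probe sets and 0.0218 over the gene table). Ddn, the postsynaptic protein dendrin, read 4.65 and 4.06 against 7.39 and 7.83. Cck, the cholecystokinin gene, stayed well expressed in the nucleus, at 7.42 and 7.26, but read 10.24 and 10.86 in the cortices. Camk2a, the kinase of glutamatergic synapses, had differences of -1.97 and -1.59. Cnih3, an AMPA receptor auxiliary protein, was an exception, at 5.01 in the nucleus of mouse 355 and 9.39 in that of mouse 511, against cortices at 8.63 and 9.18.

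Other genes among the 15 named downward by the same rule carried the same split between the regions. Ptk2b, a calcium-activated kinase of synapses, read 5.20 and 5.45 in the nuclei and 8.58 and 9.23 in the cortices. Gda had the smallest standard error of the 15, 0.20, at 5.57 and 5.44 against 9.09 and 8.84 (limma adjusted p = 0.172). Ccn3, a matrix protein, read 4.97 and 4.26 against 8.29 and 7.97, and Crym, a thyroid hormone-binding protein, 4.50 and 4.55 against 7.72 and 7.48. Rasgrp1, an activator of Ras, had differences of -2.09 and -4.63. Cdh9, a cadherin, had differences of -1.36 and -4.49, with cortices at 6.81 in mouse 355 and 8.76 in mouse 511. Mouse 511 gave the wider difference for 148 of the 212 lower genes.

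Telencephalic transcription factors followed the principal neuron genes, with 8 of 21 at least 2-fold lower in both mice, beside 0.956% of all genes. None was higher, and the medians were -0.91 and -1.43. Neurod6, a helix-loop-helix factor of cortical projection neurons, read 3.13 and 3.26 in the nuclei, but the cortices stood apart, at 5.27 in mouse 355 and 9.28 in mouse 511. Mef2c, an activity-regulated factor, read 6.51 and 6.79 against 9.38 and 8.74. Nr4a2, an orphan nuclear receptor of deep cortical layers and the claustrum, read 4.74 and 4.51 against 6.13 and 8.37. Fezf2, a factor of subcortical projection neurons, read 4.34 and 3.71 against 5.64 and 6.66. Of 20 cortical layer and piriform genes, 3 were 2-fold lower in both mice (Lamp5, Nr4a2 and Fezf2), none was higher, and the medians were -0.12 and -0.30. Lamp5, a membrane protein of upper-layer and some inhibitory neurons, read 4.86 and 4.06 in the nuclei against 8.60 and 7.39 in the cortices.

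Immediate early genes, which report recent activity and handling, gave 1 of 18 that was 2-fold lower in both mice. This was Egr3, a zinc finger factor induced by activity, at 5.08 and 4.92 in the nuclei against 7.18 and 8.43 in the cortices (limma difference -2.81, standard error 0.37, adjusted p = 0.31). The list's medians were -0.09 and -0.68. Fos was higher by 0.72 in mouse 355 and had a difference of -0.15 in mouse 511. Factors of the Egr family bind GC-rich sites, and the letters GCGNGGGCG, searched on both strands in the 250 bases before each start, occurred in 23 of 162 lower genes with a promoter in the table (14.2%), in 4 of 65 higher genes (6.15%) and in 7.35% of all 16990 genes. The lower genes also had a higher median share of G and C in these windows, 60.0% against 55.6% in all genes and 55.2% in the higher genes, and its part in the motif count was not tested. Of the 3 other motifs searched, the letters CAGNTG, an E-box of Neurod6 and its relatives, occurred in 48.1% of lower, 49.2% of higher and 45.8% of all genes, the MEF2 motif in 4.32%, 4.62% and 3.80%, and the EBF motif in 2.47%, 0% and 1.04%. A match describes letters and not a bound site. A lower gene of the list above, Nr4a2, and Pde2a, a phosphodiesterase of cyclic nucleotides that was among the 11 lower genes called over the gene table, are shown with the match in capitals, 120 bases before a start on GRCm38.p6. Pde2a was picked after its values were seen and had differences of -2.39 and -2.68. The start of Pde2a was picked for the match, since any start of this gene without it was left out.
Nr4a2, chr2:57124004-57124123, minus strand: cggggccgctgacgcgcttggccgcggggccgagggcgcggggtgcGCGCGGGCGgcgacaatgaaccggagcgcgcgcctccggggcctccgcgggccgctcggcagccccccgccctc
Pde2a, chr7:101451132-101451251, plus strand: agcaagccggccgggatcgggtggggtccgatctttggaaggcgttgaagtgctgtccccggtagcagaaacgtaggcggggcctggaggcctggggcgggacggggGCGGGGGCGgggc

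Inhibitory receptor genes held 1 member that was 2-fold higher in both mice among 20, and 2 that were lower. The higher one was Glra2, a glycine receptor subunit, at 7.04 and 7.22 in the nuclei against 5.41 and 5.32 in the cortices, a close pair on each side. Its limma difference was 1.77 with a standard error of 0.23 (adjusted p = 0.31). Glra3 could not be placed, since its cortex read 6.15 in mouse 355 and 2.67 in mouse 511, against nuclei at 5.90 and 7.09, and Glra1 differed by -0.94 in mouse 355 and 0.92 in mouse 511. Gabra4 and Gabra2, subunits of GABA-A receptors, were the lower members, with differences of -1.29 and -1.63 and of -1.10 and -1.56. Slc6a5, the glycine transporter of glycinergic neurons, read 3.78 and 3.61 in the nuclei, and 5.69 and 3.86 in the cortices.

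Of 24 genes of glutamate receptors and their auxiliary subunits, 5 were 2-fold lower in both mice (Gria3, Grin2a, Cacng3, Gria2 and Cacng8). Over all genes, 0.956% were. None of the 24 was higher, and the medians were -0.37 and -0.41. Cacng3 and Cacng8 code for auxiliary subunits of AMPA receptors. Gria3, an AMPA receptor subunit, read 6.86 and 5.72 in the nuclei against 8.57 and 8.32 in the cortices. Grin2a, an NMDA receptor subunit, read 4.48 and 4.88 against 6.39 and 6.996. The 17 calcium and HCN channel genes had none past 2-fold in both mice in either direction, with medians of -0.11 and -0.21.

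Genes of Gq and diacylglycerol signals were split, with 2 of 21 higher and 3 lower in both mice. Dgkk, a diacylglycerol kinase, read 5.62 and 6.86 in the nuclei against 4.11 and 3.93 in the cortices, and Plcb4, a phospholipase downstream of Gq, read 6.75 and 6.25 against 5.17 and 5.08. Other kinases of the same lipid, Dgkz and Dgkd, were lower, with differences of -1.18 and -2.65 and of -1.10 and -1.80, as was the protein kinase gene Prkce, at -1.76 and -1.34. A second, dim probe set of Dgkz differed by 0.34 in mouse 355 and -0.63 in mouse 511. Among 50 neuromodulator receptors, Gpr139, an orphan receptor, was 2-fold higher in both mice, at 7.03 and 6.05 against 4.29 and 4.76. Chrm1, a muscarinic receptor, was lower, at 6.38 and 5.28 against 8.30 and 9.20, and so were Sstr2 and Cnr1. The list's medians were -0.07 and -0.16.

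Among 29 synapse organizer and adhesion genes, 3 were 2-fold higher in both mice and none was lower. Nxph4, a neurexophilin, read 9.02 and 8.14 in the nuclei against 6.43 and 5.84 in the cortices (limma difference 2.45, standard error 0.71, adjusted p = 0.565). Cbln1, a cerebellin that bridges neurexins and delta glutamate receptors, read 6.86 and 6.04 against 4.69 and 4.62. Its relative Cbln2 was higher by 1.77 and 0.81. Slitrk6, a neuronal membrane protein, read 3.91 and 5.26 against 2.27 and 2.85. The list as a whole had medians of -0.02 and -0.16, and 5 of its members had an unadjusted limma p under 0.05 in each direction.

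Astrocyte genes were brighter on the nucleus arrays, above all in mouse 511. Of 22 measured, 14 were higher in both mice (6181 of all 22180 genes were), and 6 had an unadjusted limma p under 0.05 upward (3.19% of all genes had). A total of 3 were 2-fold higher in both (Itih3, Agt and Etnppl), beside 0.415% of all genes, and the medians were 0.34 and 0.86. Itih3, a hyaluronan-binding protein, read 9.02 and 8.73 in the nuclei, and 6.65 and 4.21 in the cortices. Agt, angiotensinogen, which astrocytes make in the brain, read 9.80 and 10.10 against 8.59 and 6.998. Defining astrocyte genes gave smaller or mixed values: Aqp4 differed by 0.16 and 1.62, Gfap by 0.83 and 1.36, Aldh1l1 by 0.37 and 0.31, and Slc1a2 by -0.34 and -0.46. The median astrocyte signal ranged from 8.06 to 8.38 on the nucleus arrays and from 7.02 to 7.45 on the cortex arrays, and its part in the other differences upward was not tested.

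Oligodendrocyte genes gave 14 of 19 that were higher in both mice (6181 of all 22180 genes were), none of them 2-fold in both, with medians of 0.24 and 0.60. Mbp, a main protein of myelin, differed by 0.01 and 0.43, and Mog by 0.66 and 0.98. Microglia genes lay the other way, with 11 of 17 lower in both mice (5872 of all 22180 genes were), none higher in both, and medians of -0.16 and -0.63. Cx3cr1, a microglial receptor, read 7.25 and 7.60 in the nuclei against 7.87 and 8.23 in the cortices. The 20 endothelial and mural genes had medians of 0.12 and 0.00, and the 15 genes of meninges, choroid plexus and ependyma -0.08 and 0.14, with none past 2-fold in both mice. Ttr, the defining gene of choroid plexus, stayed between 3.53 and 4.01 on the 4 arrays. Of 15 housekeeping genes none passed 2-fold in both mice, and Actb differed by -0.17 and -0.57.

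**Figure D4:**
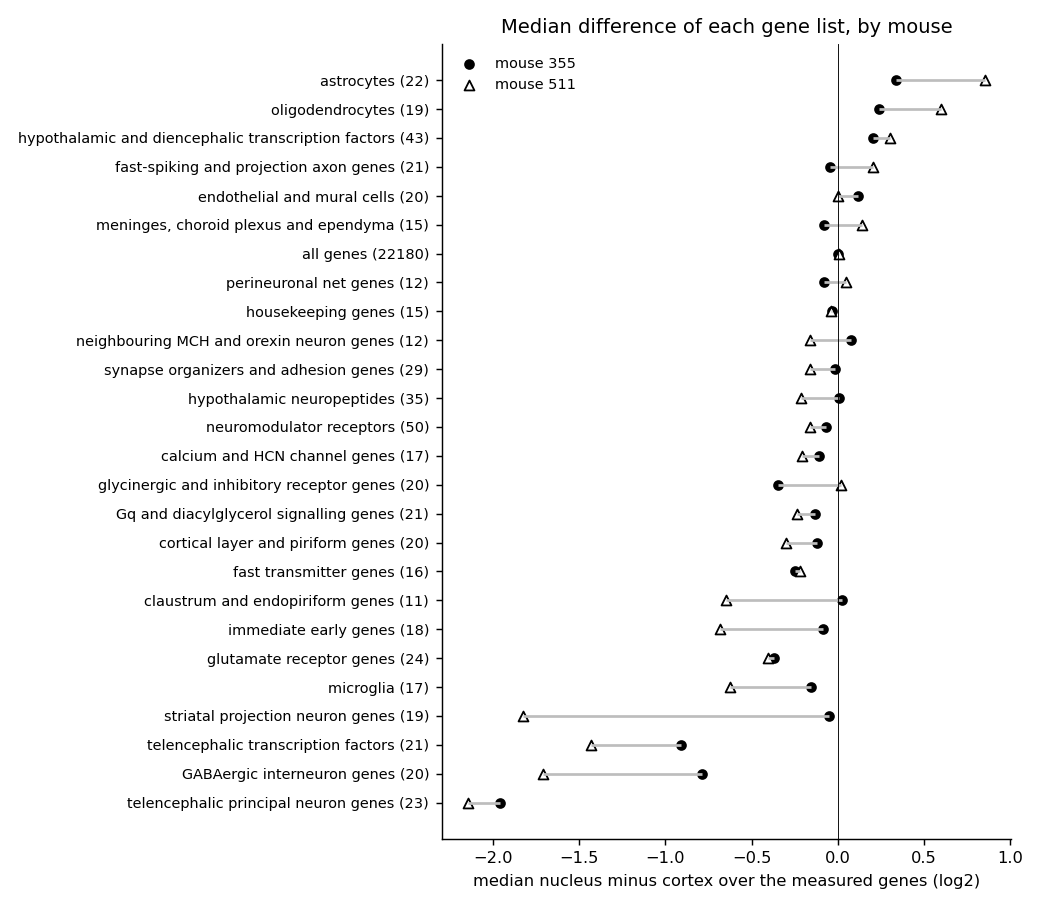
Median nucleus minus cortex difference on the log2 scale (horizontal axis) of each gene list in mouse 355 (filled circles) and mouse 511 (open triangles), with the number of measured genes in brackets. Telencephalic principal neuron genes lie lowest at -1.96 and -2.15 and astrocyte genes highest of those plotted at 0.34 and 0.86, while striatal genes lie at -0.05 in mouse 355 and -1.83 in mouse 511.

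The cortex arrays of the 2 mice differed in genes of striatal projection neurons. Of 19 striatal projection neuron genes, 14 were at least 2-fold brighter in the cortex of mouse 511 than in that of mouse 355, and none was dimmer by 2-fold, with a median gap of 1.73. Over all genes, the cortex of mouse 511 was 2-fold brighter for 478 and dimmer for 420. Drd1, a dopamine receptor of striatal neurons, read 3.79 and 8.33 in the cortices of mouse 355 and mouse 511, and 3.79 and 3.26 in the nuclei. Rarb, a retinoid receptor of the striatum, read 3.45 and 5.71 in the cortices. The median striatal signal was 5.71 in the cortex of mouse 355, 7.80 in the cortex of mouse 511, and 5.82 and 5.77 in the nuclei. Against the cortex of mouse 511 the list's median difference was -1.83, and against that of mouse 355 it was -0.05. A total of 3 of the 19 were 2-fold lower in both mice (Bcl11b, Gng7 and Pde1b). The part of this gap in the wider differences of mouse 511 was not tested. Claustrum and endopiriform genes, 11 measured, gave 3 that were 2-fold lower in both mice, and Oprk1, a kappa opioid receptor of that list, read 4.37 and 6.60 in the cortices.

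**Figure D5:**
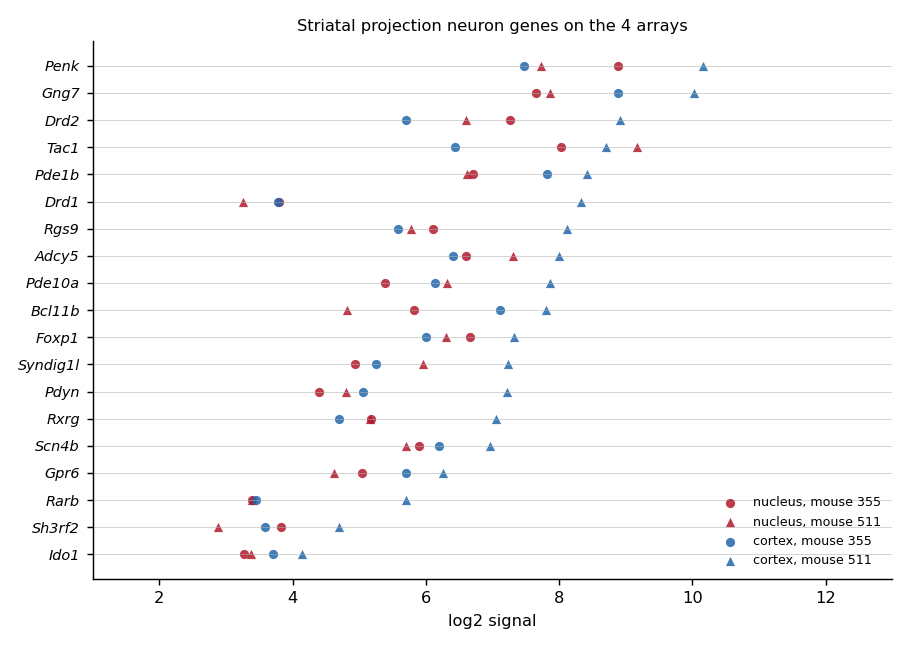
Log2 signal (horizontal axis) of 19 striatal projection neuron genes on the 4 arrays, in red for the nucleus and blue for the cortex, as circles for mouse 355 and triangles for mouse 511. The cortex of mouse 511 is the brightest array for 18 of the 19 genes, whereas the cortex of mouse 355 lies above both nuclei for 8, below both for 7 and between them for 4.

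The hippocampus served as a second view of the same nucleus arrays, so the shared arrays tie both comparisons together. Of the 92 genes 2-fold higher than the cortex in both mice, 48 (52.2%) were also 2-fold higher than the hippocampus in both, beside 0.987% of all genes. Of the 212 lower genes, 149 (70.3%) were also 2-fold lower than the hippocampus, beside 1.52% of all genes. Because the nucleus arrays are the same in both comparisons, these shares are a description and not independent support. The study's own table of nucleus genes was chosen on these samples and is not independent evidence of its direction. Of 58 of its genes and marker genes measured here, 41 were 2-fold higher than the cortex in both mice and 2 were lower, the markers Slc17a7 and Gad1.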

How the data were processed

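RNA of laser-captured tissue was amplified (NuGEN Ovation Pico WTA V2) and hybridized to Affymetrix Mouse Gene 2.0 ST arrays. The authors background-corrected, normalized and summarized the probes by RMA in Expression Console 1.2.1.20, and deposited log2 signals of 41345 probe sets, which were used as given. RMA draws all arrays to 1 distribution, so array medians (3.58 to 3.68 on the 4 arrays) carry no RNA amount, and the number of arrays limits the precision. The genome build of the deposited table is not given in the sources used here. Of the probe sets, 23521 had exactly 1 symbol, 1820 several and 16004 none. Each gene with a single-symbol probe set was represented by the one brightest over the 6 arrays.

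Region and mouse were fitted on the 6 arrays with limma 3.58.1 (R 4.3.3) and Benjamini-Hochberg adjustment. The labels tie the arrays of a mouse together, and the differences between the mice correlated between regions at 0.072, 0.042 and 0.082. Of the steps, only the limma fit was tested on simulated arrays, with known changes in some probe sets and no difference between the mice. Genes were named as the 15 widest differences in each direction, up to 4 members a list, and 10 genes opposite in the mice. The 15 were drawn from protein-coding and long non-coding RNA genes, the 10 from protein-coding genes, both without Gm or Rik symbols. Other list members, such as Vamp1, Hcrtr2, Fos, Rarb and Oprk1, were named after their values were seen. The members and lists were chosen with earlier results of these data known. Alternatives changed the block, features, normalization, variance prior, fold limit and arrays left out.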

Additional observations from a re-analysis of the deposited data

Results flagged for a closer look

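Probe sets without a gene symbol were not part of the comparisons of genes. Of 15814 tested, 140 were at least 2-fold higher and 128 at least 2-fold lower in the nucleus of both mice. By the same rule, 92 of the 22180 genes were higher and 212 lower, so the excess downward was not seen without symbols.

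For 22 genes the nucleus was at least 2-fold higher in mouse 355 and at least 2-fold lower in mouse 511, and for 22 it was the reverse. The difference between the mice was not tested for any of them, since each mouse gave 1 array a region. Below, the gap is the difference of mouse 355 less that of mouse 511 on the log2 scale. Strip2 had the widest gap, 4.74, with signals of 6.26 and 4.40 in the nuclei and 4.83 and 7.70 in the cortices of mouse 355 and mouse 511. Ifitm2, an interferon-induced membrane protein, had a gap of 4.15, and its cortex was brighter by 3.66 in mouse 511. Drd2, a dopamine receptor of striatal neurons, had a gap of 3.87, at 7.27 and 6.61 in the nuclei and 5.71 and 8.91 in the cortices. Penk, the enkephalin precursor, which is strong in the striatum, had a gap of 3.84, at 8.89 and 7.73 against 7.47 and 10.15. Snupn, a nuclear import adaptor, had a gap of 3.87, Zfp507, a zinc finger gene, one of 3.78, and Rpa3, a subunit of replication protein A, one of 3.36. Cd24a, a surface glycoprotein, had a gap of -3.44, with cortices at 9.05 and 5.15. Cdh19, a cadherin, had a gap of -3.10 and Socs2, an inhibitor of cytokine signals, one of -2.94, which came from nuclei 2.87 apart. All these gaps are of the brightest probe set. Second probe sets differed by -1.05 in mouse 355 and 0.12 in mouse 511 for Cd24a and by -0.49 and -0.12 for Socs2. Further probe sets of Zfp507 differed by -0.02 and -0.91 and by -0.08 and -0.04. That of Rpa3 was also opposite in the mice, at 1.43 and -0.81.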

How the results depend on the processing

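The limma count was 0 in the fit with mouse as a fixed block, and also in the 4 arrays alone, under both other normalizations (cyclic loess, median centring) and both other variance priors, and with any 1 array left out (0 to 0). It was 6 without the replicate block (2 higher and 4 lower), 6 with mouse as a random replicate block, 13 over the brightest probe set of each gene and 1 among probe sets above the median. Genes at least 2-fold higher in both mice numbered 92, and 418 at 1.5-fold, 22 at 3-fold, 289 by group means without the pairing, and 376 to 894 with 1 mouse left out. Genes lower in both numbered 212, and 640, 69, 457 and 534 to 1059 in the same order. Of the 92, 86 were shared under cyclic loess, and of the 212, 199. The correlation of the mice's differences was 0.281, and 0.333 among 13652 bright genes. Of 654 alternative values of 109 named differences, 16 crossed the threshold and 8 changed sign. Those 8 genes had opposite signs in the mice, so that leaving out 1 mouse had to turn them, and the signs of the others could not turn this way. With 1 mouse left out, Glra3 ranged from -0.257 to 4.43, Pvalb from -0.0467 to 1.96, Dcn from -0.607 to 1.93, Gusb from -0.0329 to 1.499, Cacna2d3 from -2.60 to 0.337, Drd1 from -5.08 to 0.0054, Cartpt from -2.96 to 0.0017 and S100a8 from -0.0952 to 1.295. Of 135 alternative list medians, 12 (in 9 of 27 lists) changed sign, 10 of them with 1 mouse left out. The striatal median of -0.80 became -0.05 without mouse 511 and -1.83 without mouse 355. Of 30 gaps between the mice 3 moved by more than 1 (Cd24a, Socs2 and Zfp507, with probe sets averaged). The other probe sets of these 3 genes, given above, had narrower gaps. The cause of the gaps was not tested. With 2 mice, 1 array decides many values.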
